A study of Saccharomyces cerevisiae S288C with 24 samples.

Results

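Transcripts of 10 genes that bring glucose into the cell or sense it outside the cell were followed in the yeast Saccharomyces cerevisiae with and without isobutanol and tryptophan. The genes were taken by name from the sugar transporter family of yeast: the hexose transporter genes HXT1 (YHR094C), HXT2 (YMR011W), HXT3 (YDR345C), HXT4 (YHR092C), HXT5 (YHR096C), HXT6 (YDR343C), HXT7 (YDR342C) and HXT10 (YFL011W), and the sensor genes SNF3 (YDL194W) and RGT2 (YDL138W). All 10 were found, each as a locus of its own, among 6905 loci used of 6929 deposited. The rule used names and no measured value, though the members were chosen with earlier results of these data known.

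RNA was sequenced from the laboratory strain BY4741 (WT), which carries deletions in HIS3, LEU2, MET15 and URA3, and from Sc12, a BY4741 strain that also lacks TRP5, the gene of tryptophan synthase. Each strain was cultured for 24 h in YPD, a rich medium with glucose as its sugar, in 4 ways: with nothing added (WT, Sc12), with 200 µg/ml tryptophan (WT + Trp, Sc12 + Trp), with 1.2% isobutanol (WT + IB, Sc12 + IB) and with both (WT + IB + Trp, Sc12 + IB + Trp). Each of the 8 groups has 3 libraries, 24 in all. All groups share the BY4741 deletions, the medium and the culture time. They did not share their growth: the paper on these data reports a growth defect with isobutanol, more severe in Sc12 and recovered with added tryptophan. It gives no level of glucose at harvest. Differences in growth or in the glucose left cannot be told apart from those of strain and treatment. Sc12 is 1 deletion strain, so the loss of TRP5 and anything else particular to that strain cannot be told apart. Whether replicates came from cultures of their own is not stated, and p-values then cover no more than the spread among these samples. The labels mark Sc12 replicate 3 and Sc12 + Trp replicate 1 as make-up data, and no call of a member changed without them. In RNA from a whole culture, a higher level in every cell and a higher level in some of the cells cannot be told apart.

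Hexose transporters of the HXT family are membrane proteins that let glucose pass down its gradient. Hxt1 and Hxt3 are low-affinity carriers used when glucose is plentiful, Hxt6 and Hxt7 are high-affinity carriers used when it is scarce, Hxt2 and Hxt4 are induced when glucose is present at low levels, and Hxt5 is made by slowly growing or starved cells. Snf3 and Rgt2 resemble the transporters but act as receptors: Snf3 senses low and Rgt2 senses high glucose, and their signal removes the corepressors Mth1 and Std1, so that the repressor Rgt1 leaves the HXT promoters. Mig1 and its relatives shut off further genes, high-affinity carriers among them, while glucose lasts.

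The libraries held 5218712 to 14580261 fragments in the loci used. TRP5 had 2921 to 8481 fragments in each WT library and 0 to 11 in each Sc12 library. Levels are given as CPM, fragments relative to library size after TMM scaling (trimmed mean of M-values, which sets the bulk of loci level between libraries), and tests are edgeR's quasi-likelihood test with Benjamini-Hochberg adjustment over 6346 loci. A gene was called, and is said to have risen or fallen, when its adjusted p was below 0.05 and its absolute log2 fold change above 1. The scaling matters for 1 group: the TMM factors were 0.588 to 0.687 in Sc12 + IB and 0.970 to 1.144 in the other libraries. Scaled by library totals instead, Sc12 + IB against Sc12 had a median over all loci of -0.84 in log2 fold change (-0.02 with TMM), and Sc12 + IB + Trp against Sc12 + IB one of 0.77 (0.02 with TMM). For Sc12 + IB against WT + IB the median went from -0.02 to -0.67. Among all loci called in the first of these, 1094 were higher and 670 lower with TMM, against 495 and 2686 with library totals. In the second these were 596 and 929 against 2399 and 440, and in the third 1024 and 702 against 512 and 2154. Fold changes below are therefore relative to the bulk of loci, and the value with library totals follows where it ends the call of a member or of a named list gene, or turns a member's direction. For the 10 members, library totals moved the log2 fold change by -0.83 to -0.82 in Sc12 + IB against Sc12, by 0.73 to 0.75 in Sc12 + IB + Trp against Sc12 + IB and by -0.66 to -0.64 in Sc12 + IB against WT + IB, which is over 1.5-fold in each.

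HXT6 and HXT7 lie next to each other on chromosome IV and are near copies. Their coding regions of 1713 bases differ at 3 bases only, written with the base of HXT6 first, the position counted from 1 at the first base of the start codon, and the base of HXT7 last: T1632C, G1666A and T1677C. The stretch around them is shown for both because it decides which reads can be told apart (coding positions 1623 to 1686, 5′ to 3′ on the coding strand, RefSeq genome R64 as used in sacCer3, differing bases in capitals). The stretch lies at chrIV:1159635-1159698 in HXT6 and at chrIV:1154243-1154306 in HXT7, both on the reverse strand.
HXT6: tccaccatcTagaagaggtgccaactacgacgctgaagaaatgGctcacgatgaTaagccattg
HXT7: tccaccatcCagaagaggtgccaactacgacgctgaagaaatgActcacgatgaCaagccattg

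Of the 1664 windows of 50 bases, the read length, in each of these coding regions, 82 (4.93%) occur once in the genome, all at the 3′ end from coding position 1583 on. Across the files, 102 of 111 loci of at least 50 windows without any unique window had 0 fragments in every library on average, so fragments came almost wholly from reads with 1 place in the genome. The counts of HXT6 and HXT7 therefore rest on these 82 windows. Levels are compared between genes as CPM per 1000 unique windows, a scale chosen after seeing the data, and for HXT6 and HXT7 it takes the 3′ end as standing for the whole gene. HXT3 shares 217 windows with HXT6 and HXT7 and 29 with HXT4, and 85.1% of its windows are unique. Of the other members, HXT1, HXT4 and HXT5 have 95.0%, 97.5% and 96.0% unique windows, and HXT2, HXT10, SNF3 and RGT2 have 100% each. Over the aligned bases, the coding regions of HXT1 and HXT3 are 83.0% identical, those of HXT4 and HXT7 82.9%, and those of the sensors SNF3 and RGT2 68.2%.

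The members fall into clusters on the map of sacCer3. HXT7 (1154216 to 1155928), HXT6 (1159608 to 1161320) and HXT3 (1162957 to 1164660) follow each other on chromosome IV, and HXT4 (287081 to 288811), HXT1 (290913 to 292625) and HXT5 (294669 to 296447) on chromosome VIII, all on the reverse strand. HXT2 lies on chromosome XIII (288079 to 289704), HXT10 on chromosome VI (112345 to 113985), SNF3 (111580 to 114234) and RGT2 (213351 to 215642) on chromosome IV, all on the forward strand. These intervals hold the coding regions without UTRs.

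The 1000 bases before each start codon were searched on both strands for CGGANNA, the site of the repressor Rgt1. HXT3 had 9 matches and HXT1 had 8, while HXT5 had 4, HXT2, HXT4 and HXT6 had 3 each, HXT7 had 2, and HXT10, SNF3 and RGT2 had none. At least 1 match was found before 66.5% of 5996 protein-coding genes, at least 3 before 11.2% and at least 5 before 1.25%, and only HXT3 and HXT1 had 8 or more. CCCCNC, the core of the Mig1 site, matched 5 times before HXT4, of which 3 matches overlap in 1 run of C, 4 times before HXT2, 3 times before HXT6 and HXT7, 2 times before HXT1, 1 time before HXT5 and HXT10, and not before HXT3, SNF3 or RGT2; 40.7% of all genes had at least 1. CCCCT, the stress response element bound by Msn2 and Msn4, matched 5 times before HXT6, 4 times before HXT7, 2 times before HXT5, 1 time before HXT1, HXT3, HXT4, HXT10 and RGT2, and 55.0% of all genes had at least 1. The last 2 motifs share letters, and 1 match of each overlapped before HXT1, HXT6 and HXT7. A match is a run of letters and no measured binding.

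**Figure D1:**
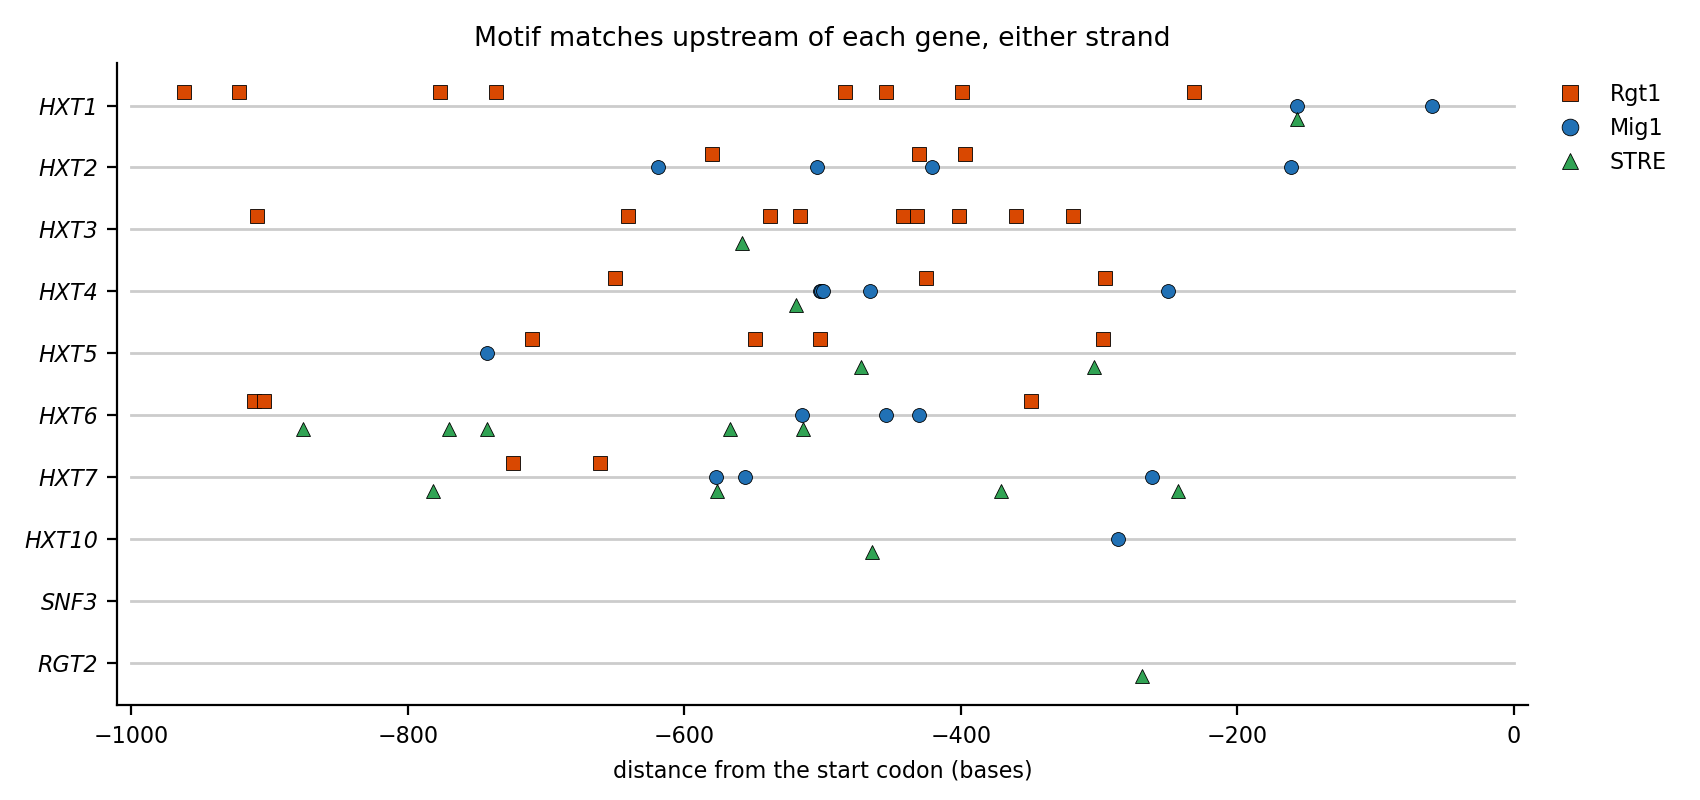
Matches to the Rgt1 (CGGANNA), Mig1 (CCCCNC) and stress response (STRE, CCCCT) motifs within 1000 bases before the start codon of each gene, on either strand; the x axis is the distance from the start codon in bases. HXT3 with 9 and HXT1 with 8 Rgt1 matches hold the most, and SNF3 holds no match of any kind.

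The stretches with the densest Rgt1 matches are shown for HXT3, HXT1 and HXT2, the members with the largest rises in Sc12 + IB against Sc12 under TMM scaling (5′ to 3′ on the coding strand, matches on either strand in capitals, RefSeq genome R64). Each is the longest run of matches at most 80 bases apart, with 8 bases on either side. They lie at chrIV:1164965-1165206 (reverse strand, 546 to 305 bases before the HXT3 start codon, 7 matches), chrVIII:293010-293117 (reverse strand, 492 to 385 bases before HXT1, 3 matches) and chrXIII:287641-287696 (forward strand, 438 to 383 bases before HXT2, 2 matches). HXT5, HXT6 and HXT7, not called higher there, also had matches at most 80 bases apart, and HXT10 rose (1.36) without a match. A link between matches and rises was not tested.
HXT3: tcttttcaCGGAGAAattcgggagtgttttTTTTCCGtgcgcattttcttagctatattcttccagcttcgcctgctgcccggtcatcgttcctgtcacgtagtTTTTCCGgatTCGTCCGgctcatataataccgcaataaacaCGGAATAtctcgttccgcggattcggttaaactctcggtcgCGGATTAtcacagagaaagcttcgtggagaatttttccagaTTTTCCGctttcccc
HXT1: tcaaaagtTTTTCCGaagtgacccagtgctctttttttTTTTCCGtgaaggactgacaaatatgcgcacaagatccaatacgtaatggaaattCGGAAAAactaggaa
HXT2: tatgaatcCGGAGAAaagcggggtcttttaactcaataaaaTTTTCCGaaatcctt

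In WT without additions, the high-affinity pair led per 1000 unique windows but not in CPM. In CPM HXT4 stood highest, at 1016 ± 132, followed by HXT5 (585), HXT3 (463), HXT6 (255) and HXT7 (217). Per 1000 unique windows, HXT6 stood at 3107 ± 247 CPM (SD, n = 3) and HXT7 at 2642 ± 241 CPM, followed by HXT4 at 619.7 ± 80.2, HXT5 at 353 ± 24.0, HXT3 at 329 ± 42.6 and HXT2 at 104 ± 4.63 CPM. The sensors RGT2 and SNF3 stood at 91.8 ± 3.20 and 61.5 ± 1.49 CPM on the same scale, HXT1 at 49.4 ± 1.56 and HXT10 at 4.10 ± 0.535 CPM. Across the 8 group means of CPM, the highest was 50.7 times the lowest for HXT1, 28.8 times for HXT3, 16.7 times for HXT2, 6.93 times for HXT10, 6.68 times for HXT6, 5.67 times for HXT4, 4.09 times for HXT5, 3.69 times for RGT2, 2.33 times for HXT7 and 1.71 times for SNF3.

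**Figure D2:**
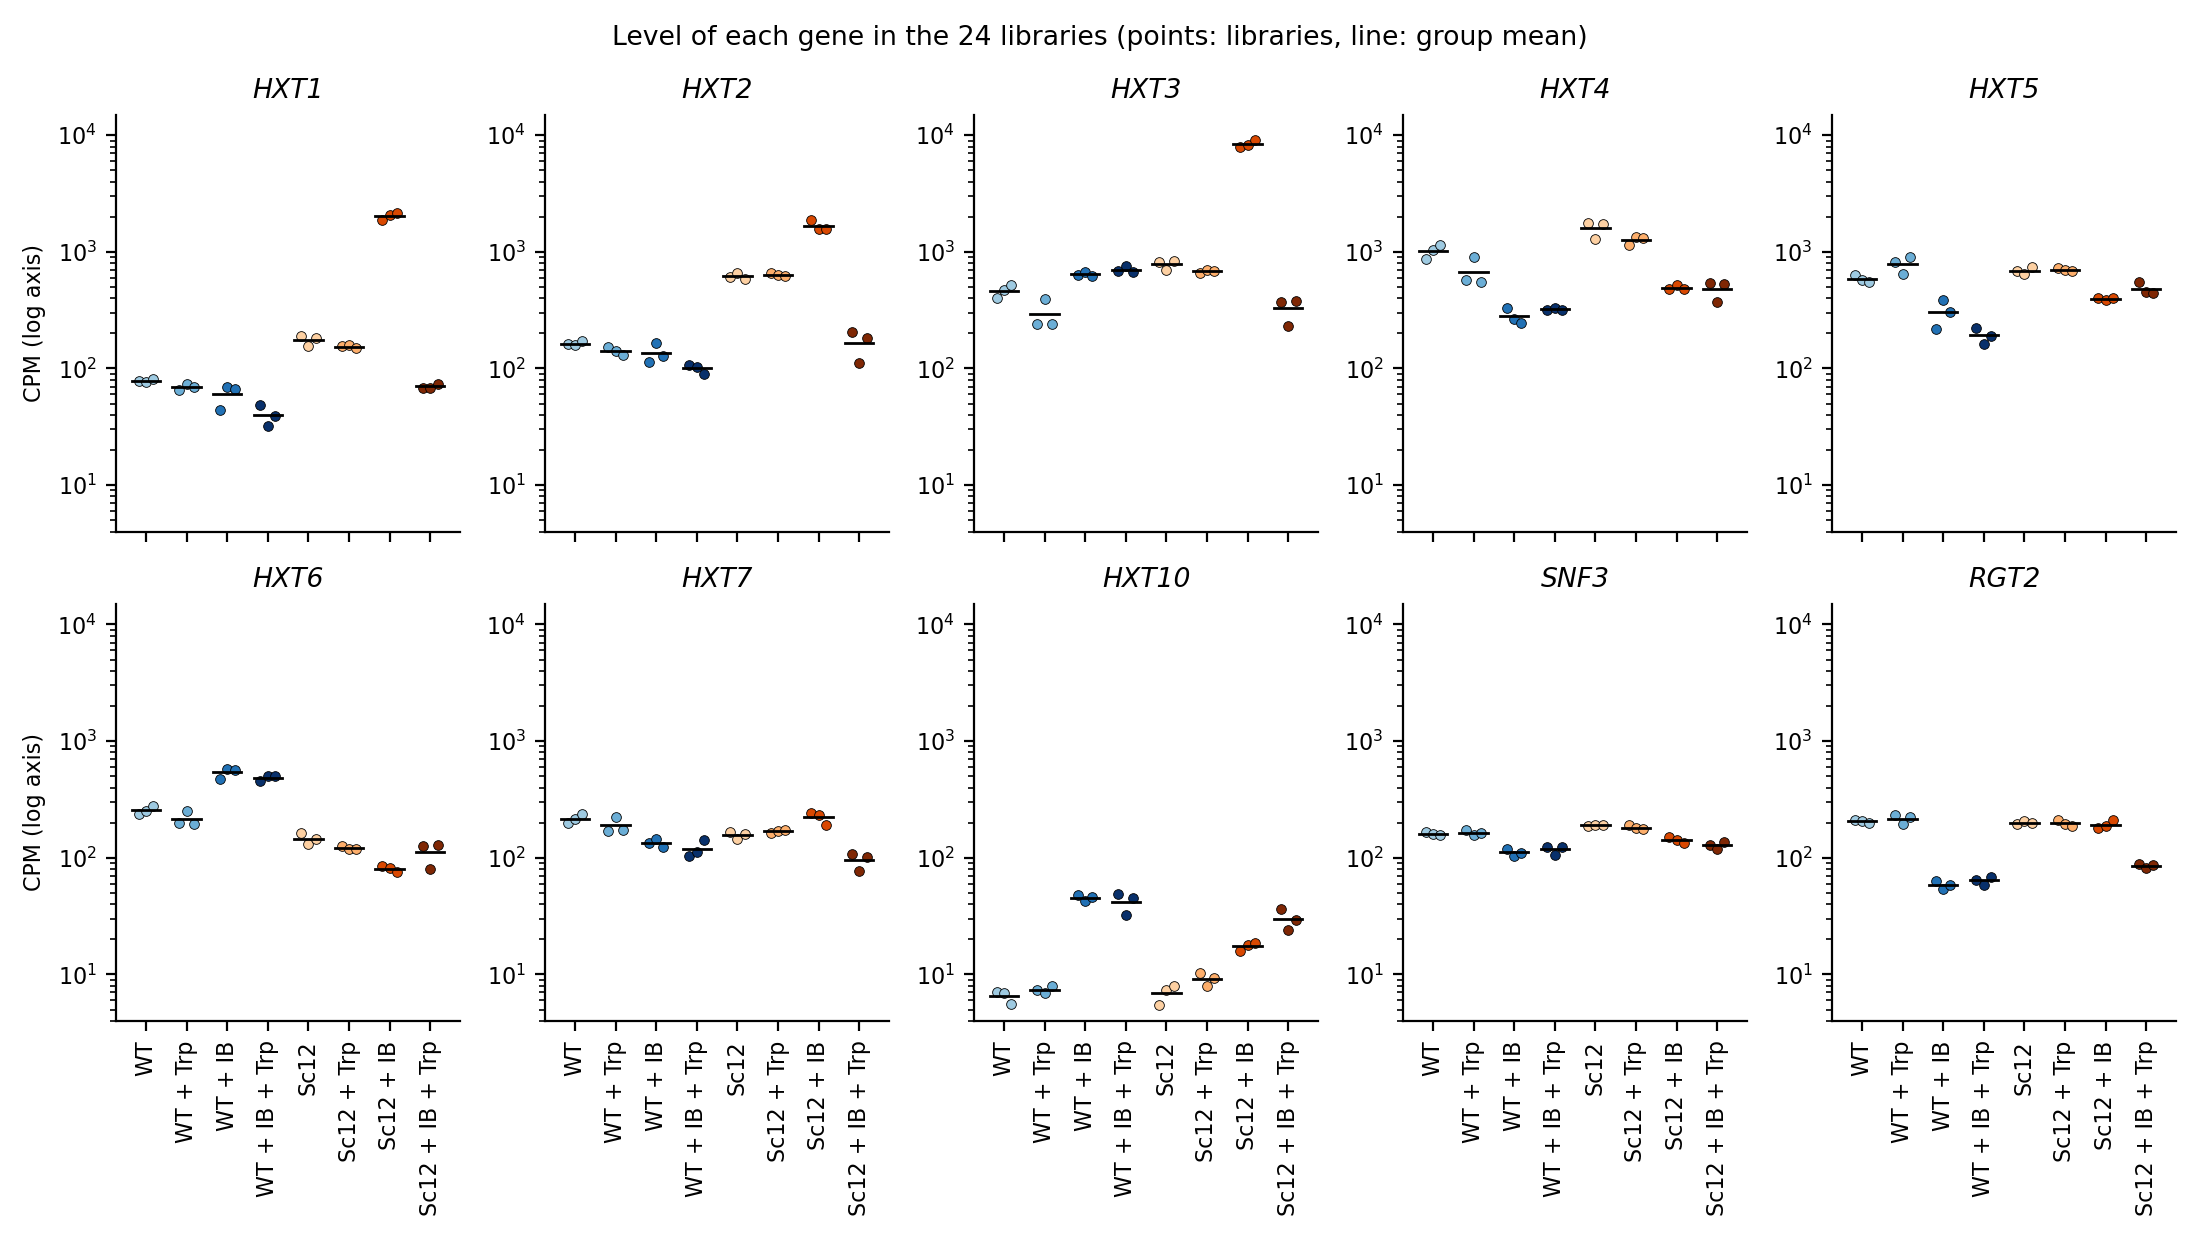
CPM (log axis) of each gene in all 24 libraries; points are libraries and the line is the group mean. HXT1, HXT2 and HXT3 stood highest in Sc12 + IB, where no library overlapped any other group, while SNF3 stayed between 104 and 191 CPM throughout.

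With isobutanol, 4 of the 10 genes were called in WT + IB against WT, where 20.7% of all loci tested were called. HXT10 and HXT6 rose, HXT4 and RGT2 fell. In the presence of tryptophan, WT + IB + Trp against WT + Trp, 6 were called (19.7% of all loci): HXT10, HXT3 and HXT6 rose, HXT5, HXT4 and RGT2 fell. In Sc12 + IB against Sc12, 5 were called (27.8% of all loci): HXT1, HXT3, HXT2 and HXT10 rose and HXT4 fell. With library totals 2 rose there, HXT1 and HXT3, and 4 fell, HXT4, HXT5, HXT6 and SNF3. Of all 6346 loci, 495 were then called higher and 2686 lower. In Sc12 + IB + Trp against Sc12 + Trp, 6 were called (17.9% of all loci): HXT10 rose, and HXT2, HXT4, RGT2, HXT1 and HXT3 fell. HXT10 rose in all 4 comparisons with TMM (in 3 with library totals) and HXT4 fell in all 4 with either scaling.

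With tryptophan given to Sc12 under isobutanol, Sc12 + IB + Trp against Sc12 + IB, 5 of the 10 genes were called (24.0% of all loci), and all 5 fell: HXT1, HXT3, HXT2, HXT7 and RGT2. With library totals 3 fell, HXT1, HXT3 and HXT2, and 3 rose, HXT5, HXT6 and HXT10, while 2399 of all 6346 loci were called higher and 440 lower. This comparison shares the Sc12 + IB libraries with the one above. In WT the same addition called 0 of the 10 by edgeR, DESeq2 and limma, and 3 had an unadjusted p below 0.05; 0.0% of all loci were called. Without isobutanol, tryptophan called 0 of the 10 by the same 3 tools in WT (3 at an unadjusted p below 0.05, 0.0158% of all loci called) and in Sc12 (1 at an unadjusted p below 0.05, 0.378% of all loci called), and the fitted log2 changes ran from -0.67 to 0.43 in WT and from -0.34 to 0.42 in Sc12.

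Between the strains, Sc12 against WT called 2 of the 10 (3.31% of all loci), HXT1 and HXT2, both higher. Sc12 + Trp against WT + Trp called 3 (3.21% of all loci), HXT1, HXT2 and HXT3, all higher. Sc12 + IB against WT + IB called 6 (27.2% of all loci), with HXT1, HXT3, HXT2 and RGT2 higher and HXT6 and HXT10 lower. Sc12 + IB + Trp against WT + IB + Trp called 3 (24.0% of all loci), with HXT5 higher and HXT6 and HXT3 lower.

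The strains' responses were compared directly by interaction terms. The isobutanol response of Sc12 differed from that of WT in 7 of the 10 genes (25.3% of all loci): HXT1, HXT3, RGT2, HXT2 and HXT7 changed upward relative to WT, HXT6 and HXT10 downward. With library totals 4 were called, HXT1 and HXT3 upward and HXT6 and HXT10 downward, while 431 of all 6346 loci were called upward and 2468 downward. In the presence of tryptophan it differed in 4 (22.7% of all loci): HXT5 upward, and HXT3, HXT2 and HXT6 downward. The effect of tryptophan under isobutanol differed in 5 (25.5% of all loci), all downward in Sc12: HXT3 (-4.80 ± 0.26 SE, adjusted p = 1.37e-13), HXT1 (-4.26 ± 0.20 SE, adjusted p = 9.61e-15), HXT2 (-2.89 ± 0.22 SE, adjusted p = 1.05e-10), RGT2 and HXT7. The calls of RGT2 and HXT7 were lost with library totals (-0.54 and -0.31). HXT5, HXT6 and HXT10 were then called upward, while 2322 of all 6346 loci were called upward and 454 downward.

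**Figure D3:**
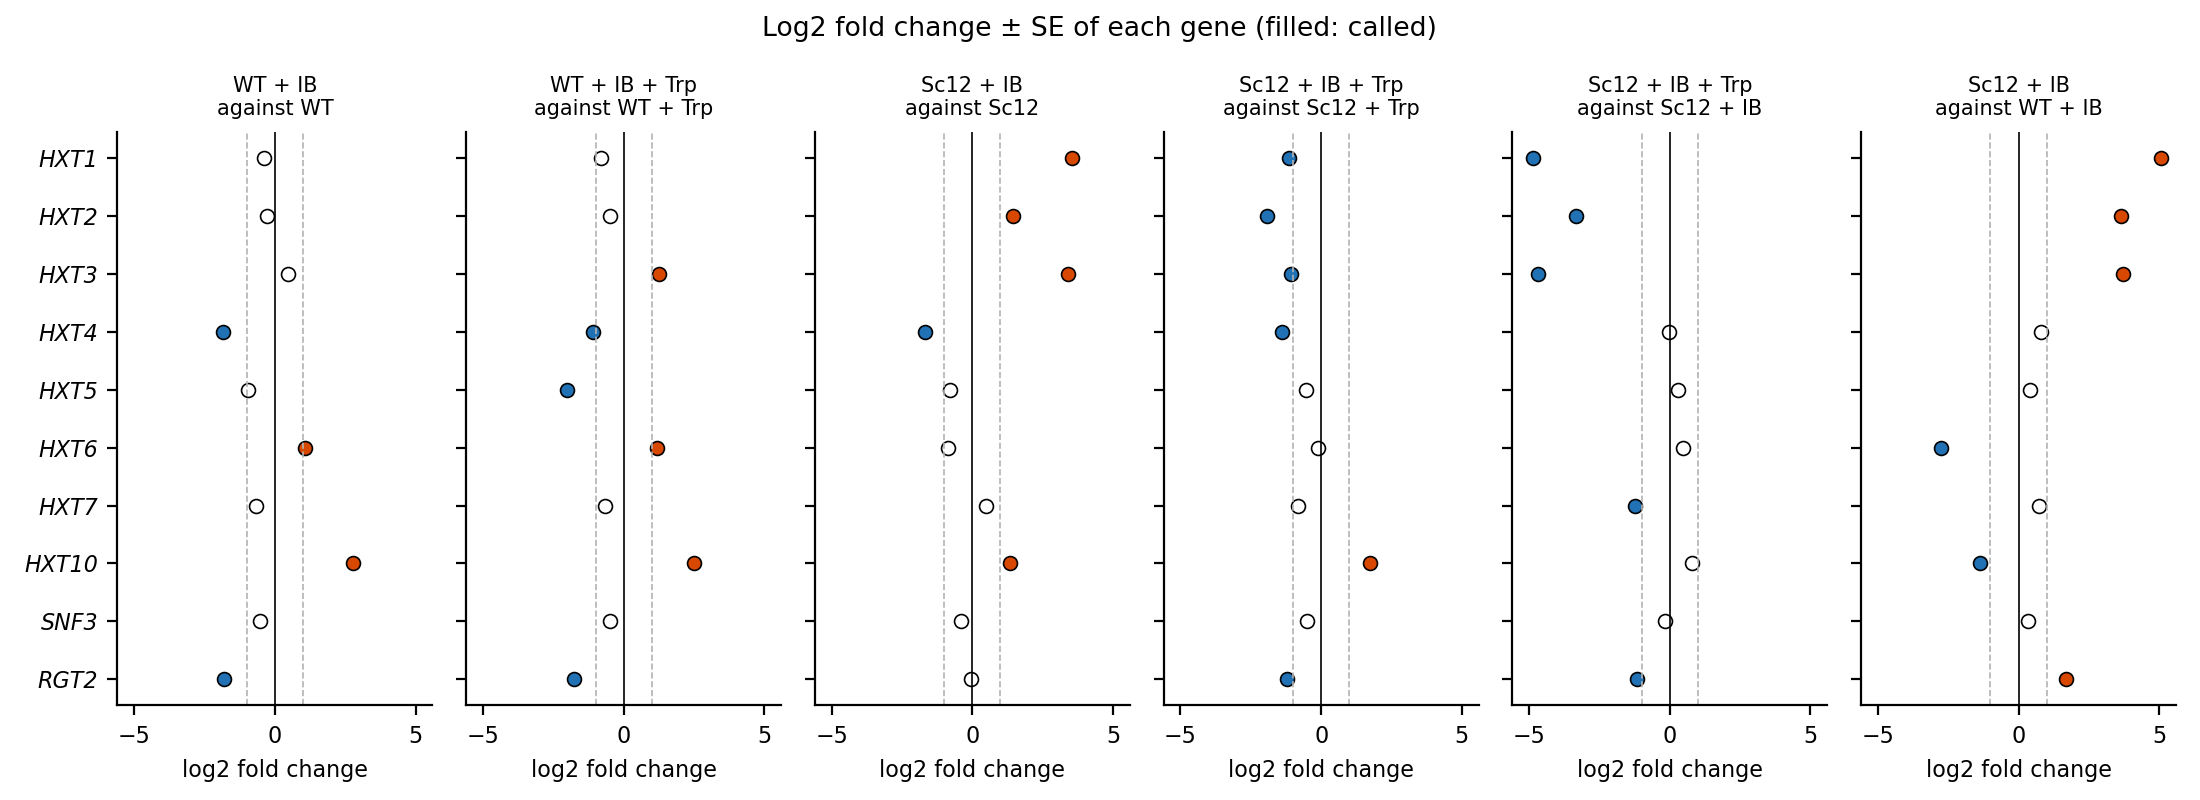
Log2 fold change (x axis) with its SE, in most cases shorter than the point, for each gene in 6 comparisons; filled points were called, orange for higher and blue for lower, and dashed lines mark a log2 fold change of 1 either way. HXT1, HXT2 and HXT3 moved up in Sc12 + IB against Sc12 and down by a larger amount in Sc12 + IB + Trp against Sc12 + IB.

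HXT3, a low-affinity carrier, stood highest in Sc12 + IB. Sc12 held 820.3, 701 and 834 CPM in its 3 libraries and Sc12 + IB 7847, 8268 and 9028 CPM. Every Sc12 + IB library was above all libraries of the other 7 groups, the highest of which was 834 CPM. The rise was 10.7-fold, a log2 fold change of 3.42 ± 0.19 (SE, adjusted p = 9.58e-14), and 2.59 with library totals. With tryptophan added, Sc12 + IB + Trp held 372, 231 and 381 CPM, a log2 fold change from Sc12 + IB of -4.68 ± 0.20 (SE, adjusted p = 8.81e-16), and -3.93 with library totals. This level lay below that of Sc12 + Trp (655, 697 and 689.9 CPM), with a log2 fold change of -1.05 ± 0.17 (SE, adjusted p = 1.20e-05), a call lost without Sc12 + IB + Trp replicate 2 (-0.85).

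In WT, HXT3 behaved otherwise. WT held 401, 468 and 520.3 CPM and WT + IB 639, 671 and 618 CPM, groups that did not overlap, with a log2 fold change of 0.47 ± 0.17 (SE, adjusted p = 0.0183), under the fold threshold. WT + Trp held 239.8, 391 and 243 CPM, where replicate 2 lay above the other libraries, and WT + IB + Trp 681, 752 and 674 CPM, a log2 fold change of 1.27 ± 0.17 (SE, adjusted p = 8.90e-07). The 2 groups did not overlap. The isobutanol response of HXT3 was 2.94 ± 0.25 (SE, adjusted p = 5.74e-10) larger in Sc12 than in WT on the log2 scale, and with tryptophan present it was -2.32 ± 0.25 (SE, adjusted p = 4.40e-08), that is, lower in Sc12. HXT3 was lower in Sc12 + IB + Trp than in WT + IB + Trp, with a log2 fold change of -1.10 ± 0.17 (SE, adjusted p = 6.06e-06), and this call too was lost without Sc12 + IB + Trp replicate 2 (-0.90).

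HXT1, the other low-affinity carrier, also stood highest in Sc12 + IB, at 1279 ± 81.8 CPM per 1000 unique windows against 5948 ± 425 for HXT3 (SD, n = 3). Sc12 held 188, 156 and 181 CPM, Sc12 + Trp 155, 158 and 149 CPM, Sc12 + IB 1882, 2050.4 and 2136 CPM and Sc12 + IB + Trp 67.9, 68.4 and 74.1 CPM. Sc12 + IB stood apart above, and Sc12 + IB + Trp lay below both groups without isobutanol. The rise with isobutanol was 11.6-fold, a log2 fold change of 3.53 ± 0.14 (SE, adjusted p = 2.05e-16), and 2.70 with library totals. Tryptophan lowered HXT1 under isobutanol 28.8-fold (-4.85 ± 0.15 SE, adjusted p = 2.10e-18, and -4.10 with library totals), and Sc12 + IB + Trp was -1.13 ± 0.13 (SE, adjusted p = 9.34e-08) against Sc12 + Trp.

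The WT strain held 77.6, 75.8 and 80.7 CPM of HXT1 in WT, 66.0, 73.8 and 68.9 CPM in WT + Trp, 44.4, 69.9 and 66.6 CPM in WT + IB and 48.7, 32.1 and 39.1 CPM in WT + IB + Trp. The WT groups followed in this order, and WT + Trp, WT + IB and WT + IB + Trp each overlapped the next. With isobutanol the log2 fold change was -0.37 ± 0.13 (SE, adjusted p = 0.0158), and -0.80 ± 0.14 (SE, adjusted p = 1.78e-05) in the presence of tryptophan, neither past the fold threshold. Between strains HXT1 was 1.17 ± 0.13 (SE, adjusted p = 4.74e-07) in Sc12 against WT and 5.07 ± 0.15 (SE, adjusted p = 1.25e-18) in Sc12 + IB against WT + IB, a 33.6-fold difference that was 4.42 on the log2 scale with library totals. The isobutanol responses of the strains differed by 3.91 ± 0.19 (SE, adjusted p = 2.75e-14).

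HXT2, a carrier induced at low glucose, was the member that differed most between the untreated strains. WT held 162, 158 and 172 CPM and Sc12 604, 664 and 582 CPM, with a log2 fold change of 1.91 ± 0.16 (SE, adjusted p = 7.65e-09). With isobutanol Sc12 + IB held 1859, 1575 and 1581 CPM, a log2 fold change over Sc12 of 1.44 ± 0.15 (SE, adjusted p = 1.39e-08), which was 0.62 and not called with library totals. Sc12 + IB + Trp held 205, 111 and 184 CPM, with replicate 2 the lowest. All 3 libraries lay below those of Sc12 + Trp (657, 628 and 625 CPM), with a log2 fold change of -1.93 ± 0.16 (SE, adjusted p = 2.98e-10), and below Sc12 + IB, with one of -3.33 ± 0.17 (SE, adjusted p = 1.68e-14). WT + Trp held 153, 142 and 130.1 CPM, WT + IB 114, 164 and 128 CPM and WT + IB + Trp 107, 104 and 90.0 CPM. HXT2 was not called in WT with isobutanol, either without tryptophan (-0.28 ± 0.15 SE, adjusted p = 0.115) or with it (-0.50 ± 0.16 SE, adjusted p = 0.00691), and the responses of the strains differed by 1.71 ± 0.22 (SE, adjusted p = 4.22e-07, and 0.96 and not called with library totals).

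HXT4 moved the other way and in both strains. WT held 876, 1037 and 1136 CPM and WT + IB 333, 267 and 246 CPM, a log2 fold change of -1.85 ± 0.18 (SE, adjusted p = 2.65e-09). Sc12 held 1781, 1289.9 and 1723 CPM and Sc12 + IB 482, 516 and 479.6 CPM, a log2 fold change of -1.70 ± 0.17 (SE, adjusted p = 6.83e-09). In neither pair did the libraries overlap. Tryptophan left the level under isobutanol close by: WT + IB + Trp held 315, 330.4 and 319 CPM and Sc12 + IB + Trp 541, 373 and 530.0 CPM, with log2 differences from the group with isobutanol alone of 0.19 ± 0.17 (SE, adjusted p = 0.608) and -0.03 ± 0.17 (SE, adjusted p = 0.874), the latter 0.71 with library totals. Against the groups with tryptophan alone, which held 572, 902 and 556 CPM in WT and 1136, 1345 and 1305 CPM in Sc12, it fell, with log2 fold changes of -1.07 ± 0.17 (SE, adjusted p = 7.49e-06) in WT and -1.39 ± 0.17 (SE, adjusted p = 2.19e-07) in Sc12. The WT call was lost without WT + Trp replicate 2 (-0.81). The responses of the strains were not called different (0.15 ± 0.24 SE, adjusted p = 0.6, and -0.62 with library totals), which does not show that they were alike.

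HXT5, the carrier of slow growth and starvation, was lower with isobutanol in every pair, past the fold threshold in 1 of them with TMM and in 3 with library totals. WT held 628, 578 and 550.0 CPM and WT + IB 219, 383 and 306 CPM, with a log2 fold change of -0.95 ± 0.15 (SE, adjusted p = 6.78e-06), which became -1.02 and was called with library totals. WT + Trp held 820.2, 648 and 896 CPM and WT + IB + Trp 224, 163 and 190.4 CPM, a log2 fold change of -2.03 ± 0.16 (SE, adjusted p = 1.05e-10). The spread within these WT groups was wide but no pair overlapped. Sc12 held 679, 640.3 and 739 CPM, Sc12 + Trp 726, 703 and 686 CPM, Sc12 + IB 403, 387 and 404 CPM and Sc12 + IB + Trp 553, 452 and 439 CPM. The log2 fold changes in Sc12 were -0.79 ± 0.15 (SE, adjusted p = 6.78e-05) without tryptophan, which became -1.61 and was called with library totals, and -0.55 ± 0.15 (SE, adjusted p = 0.00258) with it. HXT5 was higher in Sc12 + IB + Trp than in WT + IB + Trp (1.32 ± 0.15 SE, adjusted p = 6.77e-08), while limma on log2(FPKM + 1) gave a difference of 1.22 with an adjusted p of 0.0831, not called.

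HXT6 and HXT7, the high-affinity pair, went apart from each other. WT held 236, 253 and 276 CPM of HXT6 and WT + IB 475, 573 and 569 CPM, a log2 fold change of 1.08 ± 0.13 (SE, adjusted p = 1.73e-07). Sc12 held 161, 132 and 145 CPM and Sc12 + IB 85.1, 81.3 and 75.7 CPM, with a log2 fold change of -0.86 ± 0.14 (SE, adjusted p = 8.12e-06), which was -1.68 and called with library totals. HXT6 was thus the highest with isobutanol in WT and the lowest with isobutanol in Sc12, 6.68-fold apart (-2.74 ± 0.14 SE, adjusted p = 4.26e-14), and the responses differed by -1.94 ± 0.19 (SE, adjusted p = 1.03e-08). With tryptophan present as well, WT + IB + Trp held 455, 507 and 498 CPM against 197, 252 and 196 CPM in WT + Trp, a log2 fold change of 1.18 ± 0.13 (SE, adjusted p = 5.19e-08). Sc12 + IB + Trp held 127, 79.4 and 129 CPM and Sc12 + Trp 127, 119 and 119 CPM, groups that overlapped (-0.12 ± 0.14 SE, adjusted p = 0.445).

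For HXT7, WT held 197, 217 and 236 CPM and WT + IB 133, 145 and 125 CPM, lower without overlap (-0.69 ± 0.13 SE, adjusted p = 5.22e-05, under the fold threshold). Sc12 held 167, 146 and 159.9 CPM and Sc12 + IB 241, 233 and 192 CPM, higher without overlap (0.50 ± 0.13 SE, adjusted p = 0.00157), but this direction turned to -0.32 with library totals. Tryptophan lowered HXT7 in Sc12 under isobutanol, to 108, 76.9 and 101 CPM (-1.22 ± 0.13 SE, adjusted p = 1.87e-08, and -0.49 and not called with library totals). The other groups held 171, 225 and 172 CPM in WT + Trp, 103, 111 and 142 CPM in WT + IB + Trp and 164, 171 and 172 CPM in Sc12 + Trp. The strains' isobutanol responses differed by 1.19 ± 0.18 (SE, adjusted p = 7.01e-06, and 0.43 and not called with library totals).

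The ratio of HXT6 to HXT7 CPM does not depend on the scaling, and both rest on the same number of unique windows. It was 1.18 ± 0.0181 in WT, 1.14 ± 0.0181 in WT + Trp, 4.03 ± 0.504 in WT + IB and 4.17 ± 0.567 in WT + IB + Trp (SD, n = 3). In Sc12 it was 0.926 ± 0.0380, in Sc12 + Trp 0.720 ± 0.0428, in Sc12 + IB 0.365 ± 0.0248 and in Sc12 + IB + Trp 1.16 ± 0.125. It was at least 3.52 in all 6 WT libraries with isobutanol, from 1.12 to 1.20 in the 6 without it, and at most 0.393 in the 3 of Sc12 + IB. With both genes summed, WT + IB against WT was 0.51 ± 0.13 (SE) and WT + IB + Trp against WT + Trp 0.58 ± 0.13, neither called. The sum stayed lower in Sc12 + IB than in WT + IB (-1.15 ± 0.13, adjusted p = 3.46e-08). Its isobutanol response differed between the strains by -0.52 ± 0.18 (SE, adjusted p = 0.0170), not called, against -1.94 for HXT6 alone. In the presence of tryptophan the difference was -1.07 ± 0.18 (SE, adjusted p = 2.72e-05), which was called.

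HXT10, a member of the family that is hardly expressed in rich medium, had the lowest level per 1000 unique windows of all members in WT. WT held 7.05, 6.99 and 5.55 CPM and WT + IB 47.5, 42.2 and 46.0 CPM, a 6.92-fold rise (2.79 ± 0.17 SE, adjusted p = 2.06e-12). WT + Trp held 7.30, 6.93 and 7.94 CPM and WT + IB + Trp 48.5, 32.1 and 45.3 CPM, a log2 fold change of 2.50 ± 0.17 (SE, adjusted p = 1.08e-11). In Sc12 the level went from 5.47, 7.36 and 7.95 CPM to 15.8, 17.8 and 18.7 CPM in Sc12 + IB, a log2 fold change of 1.36 ± 0.19 (SE, adjusted p = 1.04e-06) that was 0.53 and not called with library totals. Sc12 + Trp held 10.2, 7.93 and 9.36 CPM and Sc12 + IB + Trp 36.5, 23.9 and 29.5 CPM, a log2 fold change of 1.72 ± 0.17 (SE, adjusted p = 6.29e-09). No group with isobutanol overlapped its partner without it. Counts were small, 47 to 119 fragments a library in the groups without isobutanol. The response was weaker in Sc12 than in WT without tryptophan (-1.43 ± 0.26 SE, adjusted p = 4.29e-05), and with tryptophan the difference was -0.78 ± 0.24 (SE, adjusted p = 0.00665), under the fold threshold.

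RGT2, the sensor of high glucose, fell with isobutanol in WT, while in Sc12 without tryptophan no change was called. WT held 212, 207 and 198 CPM and WT + IB 63.2, 54.0 and 58.8 CPM, a log2 fold change of -1.81 ± 0.08 (SE, adjusted p = 3.40e-14), and with tryptophan the groups held 232, 196 and 222 CPM and 64.0, 58.6 and 69.0 CPM, a log2 fold change of -1.76 ± 0.08 (SE, adjusted p = 4.79e-14). Sc12 held 194, 206 and 197 CPM and Sc12 + IB 179.9, 185 and 209.7 CPM, groups that overlapped (-0.05 ± 0.08 SE, adjusted p = 0.553, and -0.88 with library totals, not called). With tryptophan the fall was present in Sc12 also: Sc12 + Trp held 211, 196 and 189 CPM and Sc12 + IB + Trp 87.6, 82.3 and 85.9 CPM, a log2 fold change of -1.22 ± 0.08 (SE, adjusted p = 1.44e-11). The isobutanol responses of the strains differed by 1.76 ± 0.12 (SE, adjusted p = 6.74e-12, and 0.99, just under the threshold, with library totals), and Sc12 + IB stood 1.71 ± 0.08 (SE, adjusted p = 1.32e-14) above WT + IB. Sc12 + IB + Trp was lower than Sc12 + IB (-1.17 ± 0.08 SE, adjusted p = 1.16e-11, and -0.41 and not called with library totals).

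SNF3, the sensor of low glucose, moved least. WT held 165, 159 and 157 CPM, WT + Trp 172, 156 and 162 CPM, WT + IB 119.8, 104 and 110.0 CPM and WT + IB + Trp 123, 107 and 123 CPM. Sc12 held 189, 191 and 190.3 CPM, Sc12 + Trp 189, 179.7 and 176 CPM, Sc12 + IB 150.0, 141 and 135 CPM and Sc12 + IB + Trp 128, 119 and 136 CPM. Groups with isobutanol lay below their partners without overlap in both strains, at log2 fold changes of -0.53 ± 0.07, -0.47 ± 0.07, -0.42 ± 0.07 and -0.51 ± 0.07 (SE), none past the fold threshold. With library totals Sc12 + IB against Sc12 became -1.24 and was called. Sc12 + IB lay above WT + IB by 0.35 ± 0.07 (SE, adjusted p = 0.00017), a direction that turned to -0.29 with library totals.

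The make-up of the transporter transcripts changed with these moves. As shares of the 8 HXT genes summed per 1000 unique windows, WT held 43.1% ± 0.258 HXT6 (SD, n = 3), 36.6% ± 0.379 HXT7, 8.57% ± 0.450 HXT4 and 4.55% ± 0.228 HXT3. WT + IB held 71.6% ± 2.24 HXT6, 17.9% ± 1.64 HXT7 and 4.99% ± 0.404 HXT3. On this scale the high-affinity pair made up most of the sum in WT with and without isobutanol.

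In Sc12 the shares were 31.3% ± 0.585 HXT7, 28.9% ± 0.928 HXT6, 15.8% ± 1.45 HXT4, 9.05% ± 0.305 HXT3 and 6.41% ± 0.979 HXT2. Sc12 + IB held 47.5% ± 3.20 HXT3, 21.6% ± 2.63 HXT7, 10.2% ± 0.607 HXT1, 8.46% ± 0.862 HXT2 and 7.85% ± 0.493 HXT6. On this scale HXT3 took the largest share in this group and in no other. In CPM without the division by unique windows, HXT3 stood above HXT6 in every group. It was then the highest HXT gene in WT + IB (642.5, next HXT6 with 539.1) and WT + IB + Trp (702.4, next HXT6 with 486.8) as well as in Sc12 + IB. Sc12 + IB + Trp held 38.6% ± 2.55 HXT6, 33.3% ± 1.40 HXT7 and 6.57% ± 0.477 HXT3. The sum itself was 7208 ± 589 CPM per 1000 unique windows in WT, 6168 ± 871 in WT + Trp, 9174 ± 761 in WT + IB and 8308 ± 500.5 in WT + IB + Trp. In the other strain it was 6154 ± 514 in Sc12, 5729.8 ± 58.2 in Sc12 + Trp, 12533 ± 58.0 in Sc12 + IB and 3511 ± 707 in Sc12 + IB + Trp. With library totals, an alternative added after seeing the data, Sc12 held 6991 ± 546, Sc12 + IB 8045 ± 596, Sc12 + IB + Trp 3767 ± 601, WT 7568 ± 604 and WT + IB 9213 ± 471. The sum per 1000 unique windows then no longer stood highest in Sc12 + IB. Shares within a library do not depend on the scaling between libraries, but shares and sums do depend on the division by unique windows. In CPM without that division, the sum was 2784 ± 197 in WT and 2141 ± 159 in WT + IB, so its direction in WT was the other way. Also without it and with TMM, the sum was 13286 ± 566 in Sc12 + IB, the highest of all groups, and 4172 ± 377 in Sc12. The sum without the division was not taken with library totals.

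**Figure D4:**
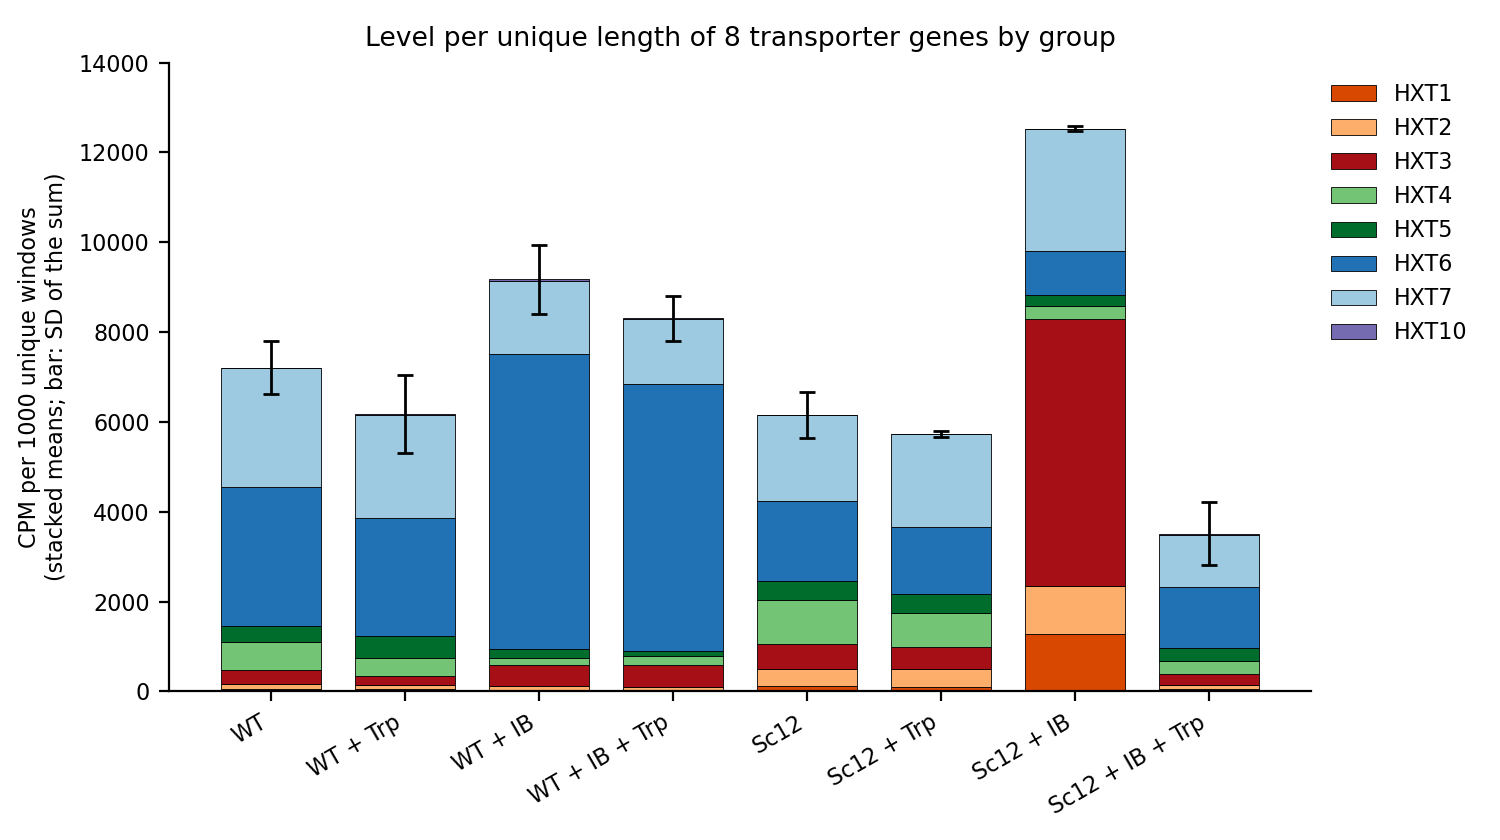
Mean level of the 8 HXT genes in CPM per 1000 unique windows, stacked by group; the error bar is the SD of the sum over 3 libraries, and the column heights rest on TMM scaling. HXT6 and HXT7 fill most of each column except that of Sc12 + IB, where HXT3 alone makes up 47.5%.

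Genes that glucose represses were counted beside the transporters (10 genes listed, all tested). This list and those below were chosen with earlier results of these data known. In Sc12 + IB against Sc12, 0 rose and 9 fell, with a list median of -1.93 on the log2 scale, beside -0.02 over all loci and 27.8% of all loci called. MLS1, which encodes a malate synthase used in the glyoxylate cycle, fell from 601 ± 57.9 to 28.6 ± 3.23 CPM (-4.40 ± 0.22, SE), and ICL1, isocitrate lyase of the same cycle, from 917 ± 6.60 to 180.3 ± 9.18 CPM (-2.35 ± 0.19). The count was the same with library totals, where 495 of all 6346 loci were called higher and 2686 lower. In Sc12 + IB + Trp against Sc12 + IB, 9 rose and 0 fell (median 1.94), beside a median of 0.02 and 24.0% called over all loci. With library totals the count was again 9 and 0, while 2399 of all 6346 loci were called higher and 440 lower. These 9 genes of the list were low in Sc12 + IB, the group in which HXT1, HXT2 and HXT3 were high.

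In WT + IB against WT, 4 rose and 1 fell of the same list (median 0.58), beside 20.7% called over all loci. SUC2, the secreted invertase, rose from 982 ± 30.5 to 4050.4 ± 1301 CPM (2.04 ± 0.23), and CYB2, a lactate dehydrogenase of mitochondria, fell from 384 ± 42.2 to 88.8 ± 33.4 CPM (-2.11 ± 0.29). In WT + IB + Trp against WT + Trp, 4 rose and 2 fell, beside 19.7% called over all loci. In Sc12 + IB + Trp against Sc12 + Trp, 1 rose and 0 fell, beside 17.9% called over all loci.

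Among 10 genes of glucose sensing and HXT induction, 0 rose and 2 fell in WT + IB against WT (median -0.35), a share close to the 20.7% called over all loci: MTH1 and STD1, the corepressors that work with Rgt1. MTH1 went from 802 ± 5.93 to 341 ± 28.4 CPM (-1.24 ± 0.10) and STD1 from 86.9 ± 2.98 to 25.8 ± 0.444 CPM (-1.75 ± 0.13). Both fell in WT + IB + Trp against WT + Trp as well. In Sc12 + IB against Sc12, YCK2, a casein kinase of the plasma membrane, and GPR1, a sugar receptor, rose (1.12 ± 0.09 and 1.03 ± 0.08, and 0.29 and 0.20, not called, with library totals). None of the 10 fell (median 0.18), while 27.8% of all loci were called. With library totals none rose and 5 fell, while 495 of all 6346 loci were called higher and 2686 lower. RGT1, named here for its site above, was not called in any of the 15 comparisons with TMM. With library totals it was called in 2 of them, at a log2 fold change of -1.40 in Sc12 + IB against Sc12 (TMM -0.57 ± 0.09) and 1.13 in Sc12 + IB + Trp against Sc12 + IB (TMM 0.38 ± 0.09).

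Of 12 genes of glucose repression and the Snf1 kinase, 0 rose and 1 fell in WT + IB against WT, MIG2, a repressor related to Mig1 (-1.05 ± 0.12), beside 20.7% called over all loci. In Sc12 + IB against Sc12, 3 rose and 0 fell: MIG3, another relative of Mig1 (1.73 ± 0.16), GLC7, the catalytic subunit of a protein phosphatase (1.18 ± 0.08), and SNF1, the kinase (1.08 ± 0.09), with a list median of 0.12, beside 27.8% called over all loci. With library totals these were 0.89, 0.36 and 0.25, not called, and of the list none rose and 5 fell. Of all 6346 loci, 495 were then called higher and 2686 lower. MIG2 and MIG3 also stood higher in untreated Sc12 than in WT (1.96 ± 0.11 and 1.65 ± 0.17). With tryptophan under isobutanol in Sc12 they fell (-2.12 ± 0.12 and -2.78 ± 0.17). Of the list, 0 rose and 3 fell there, a share close to the 24.0% called over all loci. With library totals 5 rose and 2 fell, while 2399 of all 6346 loci were called higher and 440 lower.

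Of 10 genes for hexose phosphorylation and other sugar carriers, 8 were tested. In WT + IB against WT, 0 rose and 1 fell (20.7% called over all loci), the latter MAL11, a maltose carrier (-1.54 ± 0.11), which fell in all 4 isobutanol comparisons. In Sc12 + IB against Sc12, 2 rose and 2 fell, beside 27.8% called over all loci, and the list median was 0.16. With library totals 1 rose and 3 fell, while 495 of all 6346 loci were called higher and 2686 lower. HXK2, the main hexokinase during growth on glucose, went from 263 ± 27.7 to 966 ± 154 CPM (1.88 ± 0.16, and 1.04 with library totals), HXK1, the other hexokinase, from 3819.5 ± 358 to 10894 ± 1207 CPM (1.51 ± 0.17, and 0.68 and not called with library totals), and STL1, a glycerol carrier, from 102 ± 11.4 to 31.9 ± 3.13 CPM (-1.68 ± 0.20).

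Of 10 further genes, HXT8 to HXT17 without HXT10 and with the galactose carrier GAL2, 9 were tested, and their counts were low. In WT + IB against WT, 2 rose and 2 fell, beside 20.7% called over all loci. HXT14, a galactose carrier, went from 2.80 ± 0.427 to 16.5 ± 1.67 CPM (2.55 ± 0.18) and HXT9 from 7.89 ± 1.05 to 16.9 ± 2.43 CPM (1.10 ± 0.16), while HXT13, a polyol carrier, went from 9.90 ± 1.13 to 3.94 ± 1.30 CPM (-1.36 ± 0.19). In Sc12 + IB against Sc12, HXT17, also a polyol carrier, rose (1.59 ± 0.16, and 0.76 and not called with library totals) and HXT14 fell (-1.41 ± 0.27), beside 27.8% called over all loci. The list median was 0.00 with TMM. With library totals none rose and 4 fell, while 495 of all 6346 loci were called higher and 2686 lower. Of their windows, 38.1% are unique in HXT9, 68.2% in HXT13 and 69.8% in HXT17, so reads shared with near copies are missing from their counts.

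**Figure D5:**
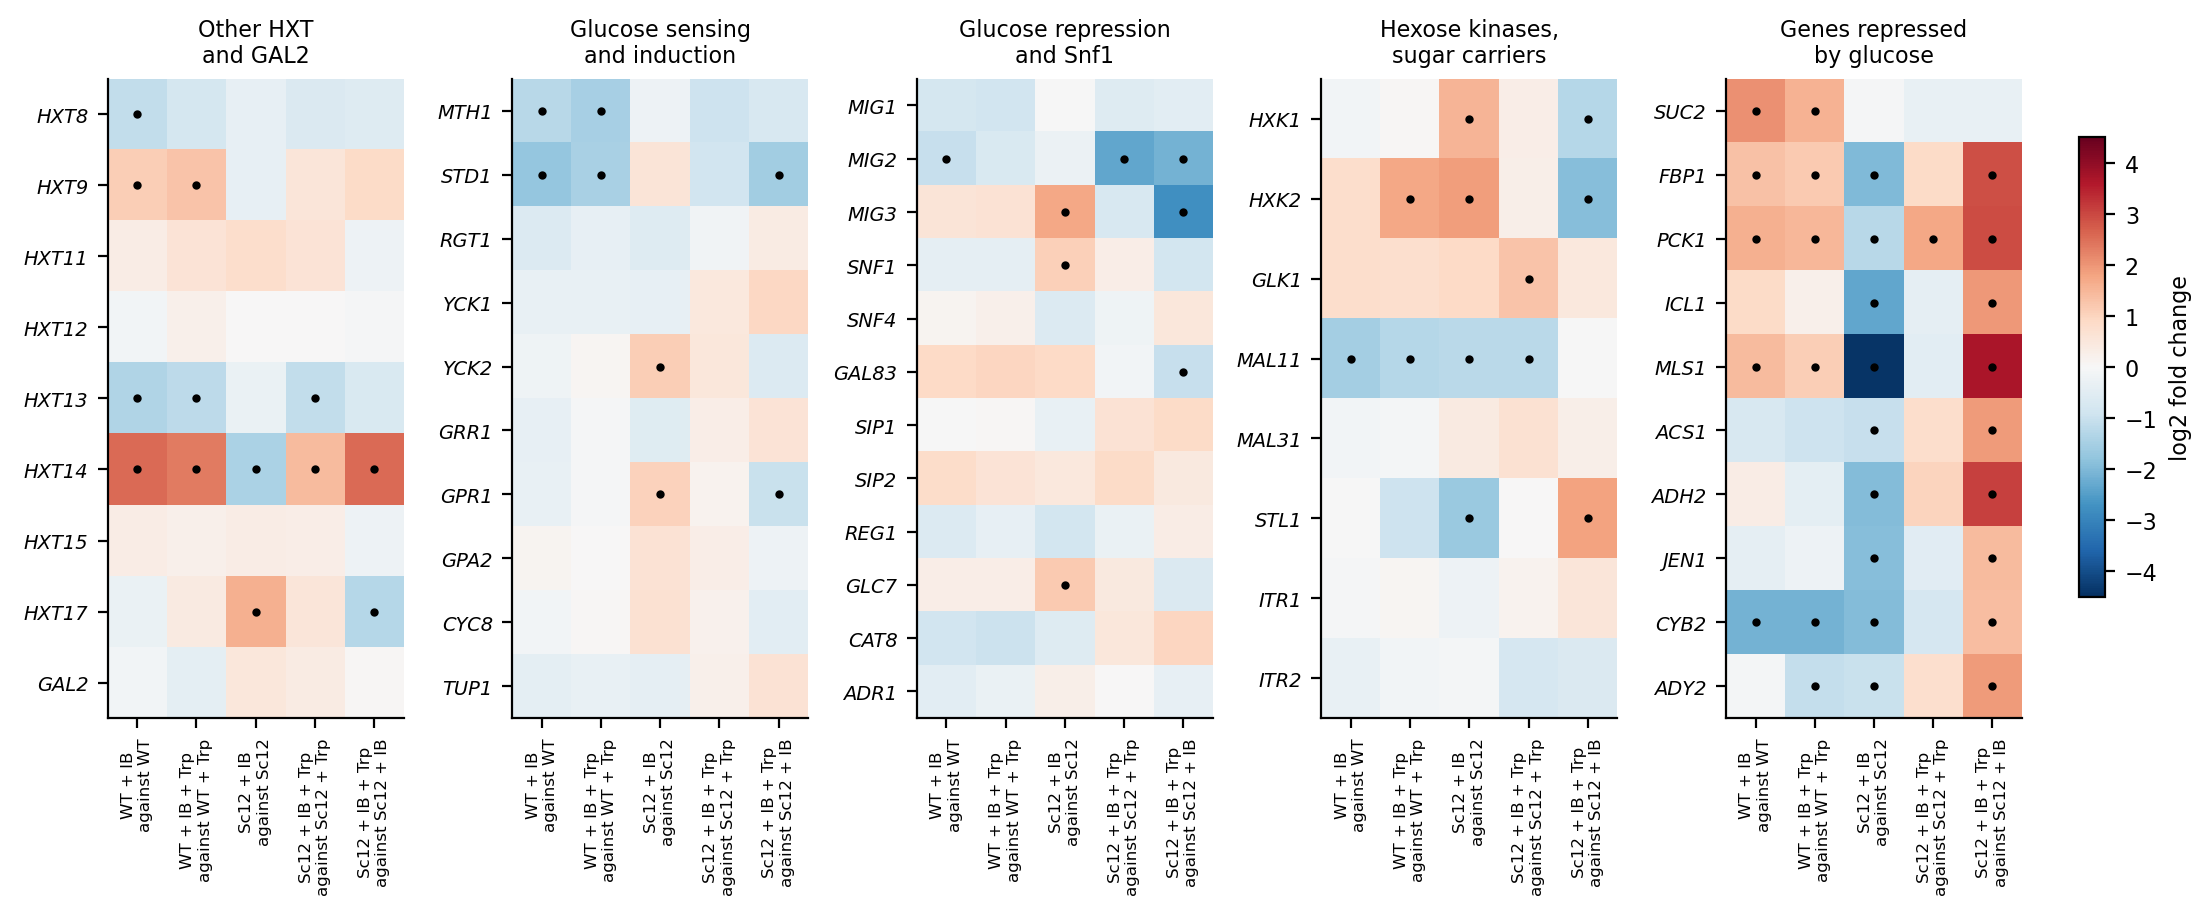
Log2 fold change (colour) of the tested genes of 5 lists in 5 comparisons; black dots mark calls. In the list of genes repressed by glucose, 9 of 10 were called lower in Sc12 + IB against Sc12 (27.8% of all loci called). In Sc12 + IB + Trp against Sc12 + IB, 9 of 10 were called higher (24.0% of all loci called). The 2 comparisons share the Sc12 + IB libraries.

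Outside the members, the loci with the most similar profile over the 8 group means of log2(CPM + 1) were sought among 5558 tested loci with a mean CPM of at least 10. For HXT1 these were ADI1, PUS1 and RTG2 (Pearson's r of 0.993, 0.982 and 0.981), for HXT3 CYS3, ROG1 and IDH2 (0.989, 0.986 and 0.985) and for HXT2 URK1, YLL037W and CDC23 (0.984, 0.983 and 0.979). For RGT2 the closest was MTH1, the corepressor named above (0.985), for SNF3 PEX18 (0.990), for HXT4 INP52 (0.991), for HXT5 SOL4 (0.977), for HXT6 MSW1 (0.991), for HXT7 LIP5 (0.959) and for HXT10 YPR071W (0.994). With 8 points from libraries that share their scaling, and so many loci searched, high values are found by search and describe the profiles only.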

How the data were processed

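RNA of 24 samples was sequenced as single-end reads of 50 bases. Per the labels, the authors used bcl2fastq 2.18, Trimmomatic 0.39, FastQC, TopHat2 2.1.1 with Bowtie2 and Cufflinks 2.2.1 on sacCer3. The gene annotation is not given in the sources used here. The estimated counts deposited are the authors' fragments per locus and library, unscaled, while FPKM, also deposited, divide them by locus length and library size. A deposited table of the authors' own comparisons (fold changes, p-values) gave only the coordinates of loci.

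Of 6929 loci, 24 with a failed estimate were left out. Fragments were rounded to whole counts and fitted with edgeR 4.0.16 (R 4.3.3), TMM, 8 group means and 16 residual degrees of freedom over the 6346 loci whose mean FPKM reached 1. A call needed an adjusted p below 0.05 and an absolute log2 fold change above 1. Alternatives were library totals, DESeq2 1.42.0, no filter, limma 3.58.1 on log2(FPKM + 1) and log2(FPKM + 0.1), fewer groups, a replicate block, and libraries left out. Replicates varied with a common coefficient of variation of 10.4%. Depth ran from 5218712 to 14580261 fragments.

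The members, gene lists and motifs were chosen with earlier results of these data known. All 10 members are named, with at most 4 genes of each list (the largest called changes with isobutanol) and up to 3 loci most similar to each member. Sequences were read from the RefSeq genome R64 with Biopython 1.88. Of 5846 loci of 1 gene matched to it, 5366 have the same start and end, and all 10 members do. Further tools were pandas 2.3.3, numpy 2.4.6, matplotlib 3.10.9 and Python 3.11.15.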

Additional observations from a re-analysis of the deposited data

Results flagged for a closer look

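The isobutanol response differed between the strains for 7 members by the interaction term of the edgeR fit. On the log2 scale, Sc12 minus WT, the difference was 3.91 for HXT1, 2.94 for HXT3, 1.76 for RGT2, 1.71 for HXT2 and 1.19 for HXT7, and it was -1.94 for HXT6 and -1.43 for HXT10. This term called 25.3% of all loci. RGT2 (0.99), HXT2 (0.96) and HXT7 (0.43) were not called with library totals. HXT2 was also not called by limma on log2(FPKM + 1) (1.44, adjusted p = 0.0856) or on log2(FPKM + 0.1) (1.43, adjusted p = 0.0910). With HXT6 and HXT7 summed, the difference was -0.52 and not called.

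In the presence of tryptophan the isobutanol response differed for 4 members (22.7% of all loci): 1.48 for HXT5, -1.30 for HXT6, -1.43 for HXT2 and -2.32 for HXT3. Of these, HXT5 and HXT2 were not called by limma with either FPKM pseudocount. The effect of tryptophan under isobutanol differed for 5 members (25.5% of all loci): -4.80 for HXT3, -4.26 for HXT1, -2.89 for HXT2, -1.29 for RGT2 and -1.04 for HXT7. With library totals RGT2 was -0.54 and HXT7 -0.31, neither called. With TMM the HXT7 value lay close to the fold threshold. It went under the fold threshold, to -0.89, when WT + IB + Trp replicate 3 was left out, to -0.91 for Sc12 + IB + Trp replicate 2, to -0.97 for Sc12 + IB replicate 1 and to -0.98 for WT + IB replicate 3. The 3 terms share libraries, so they are not independent of each other.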

How the results depend on the processing

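Of 56 called fold changes of members, all 56 kept their call and direction with DESeq2, with no filter on low values, with only the compared groups in the fit and with a replicate block. Library totals in place of TMM ended 9 calls and limma on log2(FPKM + 1) or log2(FPKM + 0.1) ended 8 each. No alternative reversed a called value. All 27 calls that involve Sc12 or Sc12 + Trp held without the libraries marked as make-up data. With HXT6 and HXT7 summed, 3 calls of HXT6 were lost, of 53 that could be compared. Leaving out 1 library at a time ended 7 of 432 calls.

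The number of members called moved by more than 1.5 times in few cases. For Sc12 + IB + Trp against Sc12 + Trp it was 6, and 3 with either FPKM pseudocount; HXT1, HXT3 and RGT2 dropped under the threshold. For the isobutanol response it was 7, and 4 with library totals. For the isobutanol response with tryptophan it was 4, and 2 with either FPKM pseudocount. All loci called in Sc12 + IB against Sc12 were 1764, and 3181 with library totals; in Sc12 + IB + Trp against Sc12 + IB they were 1525 and 2839, in Sc12 + IB against WT + IB 1726 and 2666, for the isobutanol response 1604 and 2899, and for the tryptophan effect 1617 and 2776. The cause of these differences was not tested.

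Without 1 library, members called ran from 4 to 5 in WT + IB against WT, 5 to 6 in WT + IB + Trp against WT + Trp and in Sc12 + IB + Trp against Sc12 + Trp, 5 to 5 in Sc12 + IB against Sc12 and in Sc12 + IB + Trp against Sc12 + IB, 3 to 4 in Sc12 + Trp against WT + Trp, 2 to 3 in Sc12 + IB + Trp against WT + IB + Trp and 4 to 7 for the tryptophan effect. The highest group by FPKM was the same as by CPM for all 10 members.

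The replicate block added no call lost among the members. Samples with the same number did not deviate together in every pair (r from -0.24 to 0.60 over the 12 comparisons), so the numbers were taken as names only. HXT10, at 47 fragments in its shallowest library, is the member that depth limits most.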

Other observations

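In 2 groups, replicate 2 stood apart from the other libraries in several members at once. In WT + Trp it held 391 CPM of HXT3 against 239.8 and 243, 902 CPM of HXT4 against 572 and 556, and 648 CPM of HXT5 against 820.2 and 896. In Sc12 + IB + Trp it held 111 CPM of HXT2 against 205 and 184, and 79.4 CPM of HXT6 against 127 and 129. HXT3, HXT4 and HXT7 were lowest in the same library. These libraries were singled out after their values were seen.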
